A study of Mus musculus with 4 samples.

Results

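Histone modifiers and chromatin remodelers were examined in mouse embryonic fibroblasts 5 days after retroviral delivery of reprogramming factors. The members were the genes whose RefSeq symbol begins with Hdac, Kdm, Kat, Kmt, Cbx, Chd, Setd, Prmt or Brd followed by a digit, or with Smarc, together with Ezh1, Ezh2, Eed and Suz12. Kdm5d was left out. Through the accession of each array probe, 99 such genes with 178 probes were found among 18353 named genes with 26933 probes. Of these 99 members, 98 were bright enough to be tested, and 96 of those were well above background on all 4 arrays. No probe was matched to Hdac1, Brd2, Chd7, Kmt2a, Setd1b or Brd3os.

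All cells carried the p53 null genotype, so the absence of p53 was shared by both groups, as was growth in DMEM with serum. One group received OSK, which in this field means Oct4 (encoded by Pou5f1) with Sox2 and Klf4, and the second received OSK plus the zinc finger factor Glis1. Each group had 2 one-colour arrays, all 4 on 1 slide, and the series gives no untransduced cells. The labels call the OSK cells embryonic fibroblasts and the OSK+Glis1 cells induced pluripotent cells from such fibroblasts, while nothing says whether replicates were separate cultures. The spread behind each p-value is that of the arrays at hand and may be purely technical, and their number limits the precision.

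Histone acetyltransferases add acetyl groups to histone tails and deacetylases (HDACs) remove them, and bromodomain proteins bind the acetylated tails. Lysine and arginine methyltransferases and lysine demethylases do the same for methyl groups, which chromodomain proteins read. Remodelers of the SWI/SNF, ISWI and CHD families use ATP to move or evict nucleosomes. Reprogramming requires the fibroblast pattern of these marks to be rewritten, and several of these enzymes are known to speed or hinder it.

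Signals are given as log2 of the processed signal relative to the 75th percentile of the same array. Such a level can be compared between arrays for 1 probe and not between probes. The share of spots well above background was 59.9% to 65.2%, and saturation affected 0 spots. The Glis1 probe was at -3.26 and -3.34 in OSK and at -3.28 and -3.73 in OSK+Glis1, so it gave no check of the labels, and directions below refer to the groups as labelled. The Pou5f1 probe, for a factor given to both groups, was at -4.52 and -5.72 in OSK and at -2.19 and -1.08 in OSK+Glis1. Its difference was 3.49 (limma adjusted p = 0.0194), and it entered the test only through the OSK+Glis1 arrays. Klf4 (0.14) and Sox2 (1.12) did not pass. The part of the delivered factors in these signals was not tested. Of 10 fibroblast markers all were measured, and 6 of them (Col1a1, Thy1, Dcn, Lum, Fap and Postn) fell in OSK+Glis1. Fap entered the test only through the OSK arrays, where it is high. Vimentin (Vim) lay between 6.96 and 7.18 on all arrays and did not pass. Col3a1 (-0.87), Pdgfrb (-0.10) and Col1a2 (0.16) did not pass either. The log2 of the summed signals of the 10 was 8.36 and 8.31 in OSK and 8.16 and 7.94 in OSK+Glis1. That sum is carried mostly by the brightest probes, Vim and Col1a2, and says little of the others. Of 10 pluripotency markers 8 had a probe and 7 were tested. Of these 7 the difference was positive for 3 and negative for 4, with a median of -0.01. Esrrb and Lin28a, which were not well above background in OSK, were called higher. Both entered the test only through the OSK+Glis1 arrays, where they are high, so a difference was built into their selection. Zfp42, a defining marker of pluripotent cells, was at -4.48 and -3.20 in OSK and at -6.79 and -4.25 in OSK+Glis1, a difference of -1.68 that did not pass. Of 6 epithelial markers 5 were tested and 1, Cldn7, fell. Krt8 (-1.97) and Epcam (-1.64) were lower without passing, and the other 2 differences were positive (Cdh1 0.03, Krt18 0.27). Of 6 leukocyte markers 3 were tested and 0 called. In such bulk samples, fewer cells of a type and less RNA per cell cannot be told apart, and the part of cell make-up in the results below was not tested.

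Few members differed between the groups. In limma with Benjamini-Hochberg adjustment over 19171 genes, 7 of 98 members (7.14%) passed an adjusted p of 0.05, against 14.2% of all genes tested. Of these 19171, 13508 carry a gene symbol, and the rest stand under an accession or probe name. All members carry a symbol, so here and below the shares of all genes come from an unlike set. The members higher in OSK+Glis1 were 4 in number (4.08%, against 6.05% of all genes): the remodeler Chd5, the deacetylases Hdac7 and Hdac6, and the Polycomb reader Cbx7. The lower members were 3 (3.06%, against 8.17% of all genes): the deacetylase Hdac9, the acetyltransferase Kat2b and the SWI/SNF ATPase Smarca2. An unadjusted p under 0.05 was reached by 20 members (20.4%), against 29.2% of all genes. The counts of calls per role given below rest on 4 to 17 tested genes each and were not tested against the shares of all genes.

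The differences of members were small. Their median absolute log2 difference was 0.24, against 0.32 for all genes, and the 90th percentile was 0.75, against 1.52 for all genes. A fitted difference of at least 2-fold was found for 4 members (4.08%), namely Chd5, Hdac7, Cbx7 and Hdac9, and for 16.8% of all genes. For 71 of 98 members (72.4%) the 95% interval of the difference lay within 2-fold in both directions, which held for 57.1% of all genes. The median standard error was 0.19 for members and 0.20 for all genes. The median signal was higher for members, at 0.98 against -0.65 for all genes. The part of signal level in the size of the differences was not tested. The groups did not overlap for 50 members (51.0%), against 59.9% of all genes. The signed median was 0.08, against 0.05 for all genes, and 59 differences were positive and 39 negative. In the authors' deposited log2 values, whose centring moved the median of all genes to 0.21, the member median was 0.24 with 79 positive differences, and 6 members were higher and 1 lower.

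**Figure D1:**
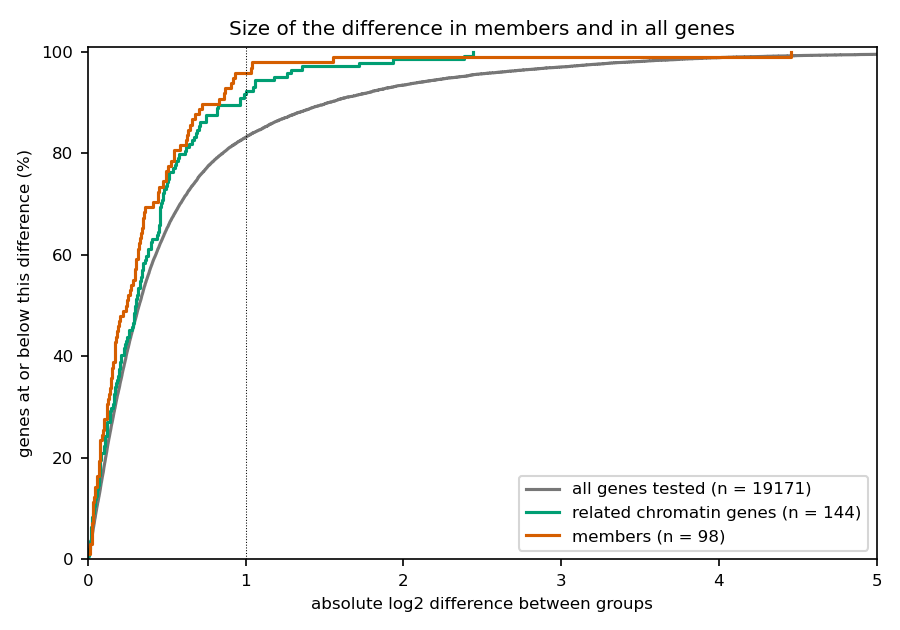
Cumulative share of genes (vertical axis, percent) at or below an absolute log2 difference between OSK+Glis1 and OSK (horizontal axis), for the 98 members tested, 144 related chromatin genes and all 19171 genes tested, with a dotted line at 2-fold. At the dotted line the member curve lies above that of all genes; 4 members lie to its right, the farthest being Chd5 at 4.45. The axis ends at 5, beyond which some of all genes lie.

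**Figure D2:**
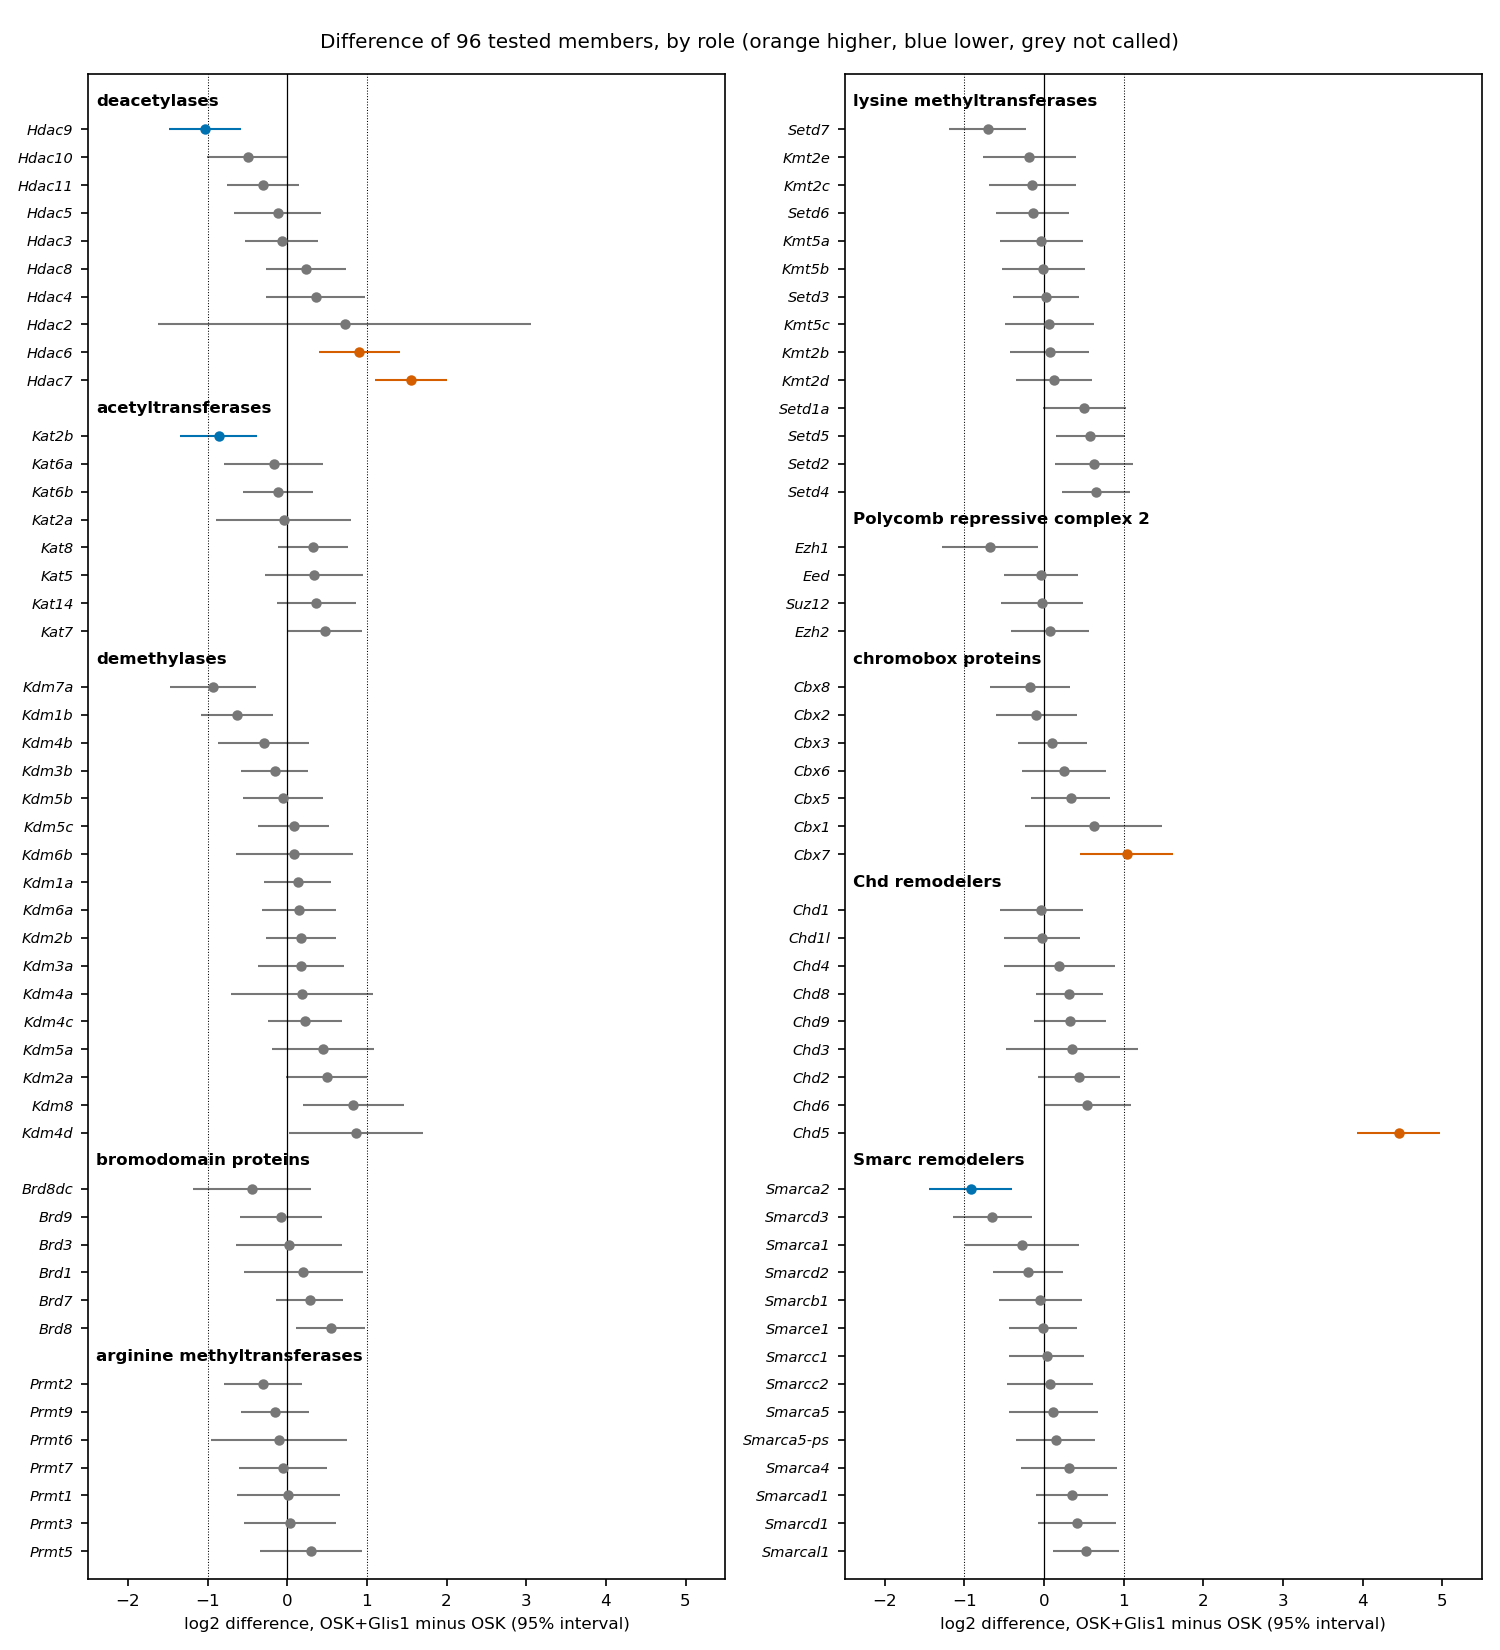
Log2 difference, OSK+Glis1 minus OSK, of 96 of the 98 tested members with its 95% interval from limma, grouped by role, from 2 arrays per group; dotted lines mark 2-fold. Orange points passed the test upwards (4), blue points downwards (3), and grey points did not pass.

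Most CHD remodelers are helicase-like ATPases with paired chromodomains. Of 9 tested genes with Chd names, 1 rose and 0 fell. Chd5, a CHD remodeler known for its expression in neurons and testis and as a tumour suppressor acting through p53 and Arf, had the largest fitted difference of any member. Its signal was -6.45 and -6.53 on the OSK arrays, neither well above background, and -1.85 and -2.22 on the OSK+Glis1 arrays. The groups lay far apart, and both OSK+Glis1 arrays were well above background. Because the OSK signal is not above background, the OSK+Glis1 mean was set against a floor on each OSK array. That floor is the higher of the probe's own signal and the lowest well-above-background signal of any probe. Against it the brightest Chd5 probe was 14.4-fold higher. The floor (-6.21 and -5.56) is no detection limit: Sox2, at -5.82 and -5.44 in OSK, lay above it without being well above background. The value of 14.4-fold is therefore no strict lower bound. Chd5 entered the test only through the OSK+Glis1 arrays, where it is high, so a difference was built into its selection. The fitted log2 difference of 4.45 (limma adjusted p = 0.00225) uses OSK signals that are not above background and is no measured size. It was 1.69 under normexp background correction with flagged backgrounds replaced, still called, and 0.25 under plain normexp.

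Chd5 has 3 probes, and all behaved alike in direction. The second was at -6.28 and -7.43 in OSK and at -3.11 and -3.10 in OSK+Glis1. The third, named by another accession, was at -8.32 and -6.33 in OSK and at -5.02 and -5.07 in OSK+Glis1. On all 3 probes no OSK array and both OSK+Glis1 arrays were well above background. Each probe thus entered the test only through the group where it is high, and their shared direction is no independent support.

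The other 8 CHD genes did not pass. Chd2 was at 0.48 and 0.82 in OSK and at 1.15 and 1.04 in OSK+Glis1 (difference 0.44, limma adjusted p = 0.224), without overlap. Chd6 was at -1.96 and -2.38 in OSK and at -1.65 and -1.60 in OSK+Glis1 (difference 0.55, limma adjusted p = 0.173). Chd3 and Chd4, the ATPases of the NuRD deacetylase complex and the closest relatives of Chd5, had intervals of -0.48 to 1.18 and -0.50 to 0.89. Chd8 and Chd9 differed by 0.32 and 0.33, and Chd1 and Chd1l by -0.03 and -0.02. None of these passed, and the difference between Chd5 and the other Chd genes was not tested.

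The windows upstream of the transcription start are shown for the called members with 1 start, or starts within 3 bases, in the RefSeq promoter table (GRCm38.p6), because they show a feature that most members share. Each window holds the 250 bases before the start, 5′ to 3′ on the gene's strand, and capitals mark CpG dinucleotides. For Chd5, whose 2 starts differ by 3 bases, the first is shown. The windows are chr4:152338401-152338650 on the + strand for Chd5, chr15:79932647-79932896 on the - strand for Cbx7, chrX:7947890-7948139 on the - strand for Hdac6 and chr19:26604910-26605159 on the + strand for Smarca2.
Chd5: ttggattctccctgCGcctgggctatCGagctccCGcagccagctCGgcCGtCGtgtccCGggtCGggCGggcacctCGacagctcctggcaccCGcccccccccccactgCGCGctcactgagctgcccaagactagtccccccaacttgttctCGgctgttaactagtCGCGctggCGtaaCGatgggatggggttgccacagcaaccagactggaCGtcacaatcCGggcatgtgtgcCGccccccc
Cbx7: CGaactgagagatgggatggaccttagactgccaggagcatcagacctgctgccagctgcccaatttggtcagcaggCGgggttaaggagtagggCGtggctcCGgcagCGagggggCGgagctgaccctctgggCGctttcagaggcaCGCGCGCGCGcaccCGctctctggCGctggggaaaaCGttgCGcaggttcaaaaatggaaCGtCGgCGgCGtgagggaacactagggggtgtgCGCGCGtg
Hdac6: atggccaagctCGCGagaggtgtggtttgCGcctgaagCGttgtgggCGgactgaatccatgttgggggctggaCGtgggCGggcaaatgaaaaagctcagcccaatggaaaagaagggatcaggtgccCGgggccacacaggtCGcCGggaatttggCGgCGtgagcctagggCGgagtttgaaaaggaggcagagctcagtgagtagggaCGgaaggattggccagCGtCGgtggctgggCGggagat
Smarca2: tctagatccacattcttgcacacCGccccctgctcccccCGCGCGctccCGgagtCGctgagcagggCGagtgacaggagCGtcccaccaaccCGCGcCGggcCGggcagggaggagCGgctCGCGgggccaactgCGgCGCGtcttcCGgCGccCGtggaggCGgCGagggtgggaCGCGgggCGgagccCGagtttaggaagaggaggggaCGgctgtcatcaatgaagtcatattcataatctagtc

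All 4 windows were rich in CpG, with 21, 23, 17 and 28 CpGs for Chd5, Cbx7, Hdac6 and Smarca2 and a GC content of 67.2%, 64.8%, 61.2% and 68.4%. A window was called CpG-rich at a GC content above 50% and an observed-to-expected CpG ratio above 0.6. By that rule 78 of 103 member windows (75.7%, from 78 members with an entry) were CpG-rich, against 56.8% of 13717 windows of tested genes and 30.8% of all 32851 windows. Chd5, Cbx7 and Hdac6, which rose, share this feature with Smarca2, which fell. Of the other called members, Hdac7 had 2 CpG-rich windows of 4, while Hdac9 and Kat2b had none among 2 windows each. Motifs were searched on both strands of the same windows, each as exact letters. TGGGGGGT, the core of the sequence that Glis proteins are known to bind, was in 1.36% of all windows, 1.31% of windows of tested genes and 1.94% of member windows. The E-box CACGTG was in 6.02%, 8.08% and 7.77% of these sets in the same order. The octamer ATTTGCAT was in 1.60%, 1.33% and 1.94%, and the TCF motif CTTTGAT in 3.21%, 2.30% and 0.971%. In the 8 windows of the members that rose, 0 matches to any of these motifs were found, and the 5 windows of those that fell held 1 octamer match.

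SMARC genes encode the ATPases and core subunits of SWI/SNF (BAF) and ISWI complexes. Of 14 tested, 0 rose and 1 fell. Smarca2 encodes BRM, 1 of the 2 alternative ATPases of SWI/SNF. It was at 1.93 and 1.59 in OSK and at 0.91 and 0.77 in OSK+Glis1. Both OSK+Glis1 arrays lay below both OSK arrays. Smarca2 fell 1.89-fold (-0.92 ± 0.20 SE on the log2 scale, adjusted p = 0.0466 in limma). Its other 2 probes also were lower without overlap, by -1.14 and -1.38 on the log2 scale.

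Smarca4 encodes BRG1, the other ATPase and the one used by the BAF form of embryonic stem cells. It was at 4.21 and 4.01 in OSK and at 4.19 and 4.66 in OSK+Glis1, and the groups overlapped. Its difference was 0.32 with an interval of -0.29 to 0.92 (limma adjusted p = 0.441), and its other 2 probes differed by 0.13 and 0.27. Whether Smarca2 and Smarca4 differ in their response was not tested.

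The core subunits differed little. Smarcb1 was at 4.78 and 5.16 in OSK and at 4.94 and 4.92 in OSK+Glis1, with an interval of -0.57 to 0.48. Smarcc1 (BAF155) was at 3.67 and 3.63 in OSK and at 3.55 and 3.81 in OSK+Glis1, with an interval of -0.44 to 0.51. Smarcc2 (BAF170) had an interval of -0.47 to 0.62. For these 3 subunits a change of 2-fold thus lay outside the interval. Smarcd3 (BAF60C), a subunit linked to muscle and heart, was at 0.33 and 0.43 in OSK and at -0.12 and -0.42 in OSK+Glis1. Its groups did not overlap, but the difference of -0.65 did not pass (limma adjusted p = 0.0966). Smarcal1, an annealing helicase of stalled replication forks, differed by 0.53 (limma adjusted p = 0.105). Smarcd1 differed by 0.41 and Smarcad1 by 0.35, and Smarca1, Smarcd2 and Smarce1 by -0.27, -0.20 and -0.01. The ISWI ATPase Smarca5 differed by 0.12, and its probe and that of the pseudogene Smarca5-ps may read the same RNA, so both values are uncertain.

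Deacetylases held 3 of the 7 calls. Of all genes 6.05% were called higher and 8.17% lower, and no role was tested against these shares. Of 10 tested HDAC genes 2 rose and 1 fell, and the sign was positive for 5 and negative for 5. Class IIa enzymes (Hdac4, Hdac5, Hdac7 and Hdac9) shuttle between nucleus and cytoplasm and repress genes through corepressor complexes.

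Hdac7, a class IIa enzyme known for its role in endothelium and thymocytes, was at 1.89 and 2.03 in OSK and at 3.60 and 3.42 in OSK+Glis1. The groups were separated by far more than either spread. Hdac7 rose 2.93-fold (1.55 ± 0.18 SE on the log2 scale, adjusted p = 0.00812 in limma). A second probe, not itself in the test, was at -0.32 and 0.06 in OSK and at 1.77 and 1.36 in OSK+Glis1, 1.70 higher. Of 5 endothelial markers, Kdr alone was tested and rose by 2.28 on the log2 scale, while Pecam1, Cdh5, Tie1 and Emcn were not well above background on both arrays of either group; the part of endothelial RNA in the Hdac7 value was not tested.

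Hdac9, a class IIa enzyme of muscle and brain, was at -3.10 and -3.13 in OSK and at -4.24 and -4.05 in OSK+Glis1. It fell 2.04-fold (-1.03 ± 0.17 SE on the log2 scale, adjusted p = 0.0227 in limma). A second Hdac9 probe was too dim to be tested. The other class IIa genes did not pass: Hdac4 differed by 0.36 (interval -0.26 to 0.98) and Hdac5 by -0.12 (interval -0.66 to 0.42). Whether Hdac7 and Hdac9 differ from each other in response was not tested.

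Hdac6, a class IIb enzyme that deacetylates tubulin in the cytoplasm, was at 2.79 and 3.04 in OSK and at 3.71 and 3.93 in OSK+Glis1. It rose 1.87-fold (0.91 ± 0.19 SE on the log2 scale, adjusted p = 0.0446 in limma). Its class IIb relative Hdac10 was at 0.88 and 0.98 in OSK and at 0.27 and 0.59 in OSK+Glis1, a difference of -0.50 (limma adjusted p = 0.176). Hdac11, the class IV enzyme, differed by -0.31 (limma adjusted p = 0.329). Both Hdac10 and Hdac11 had groups without overlap.

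Class I enzymes are the nuclear deacetylases of the Sin3, NuRD, CoREST and NCoR complexes. Hdac3, the catalytic subunit of the NCoR complex, was at 1.90 and 1.87 in OSK and at 1.69 and 1.93 in OSK+Glis1, with an interval of -0.53 to 0.39. Hdac8 differed by 0.24. Hdac2 was at -1.46 and -0.89 in OSK and at -1.80 and 0.89 in OSK+Glis1. The 2 OSK+Glis1 arrays differed more from each other than from the OSK arrays, and the interval of -1.62 to 3.06 excludes neither a large rise nor a large fall. Without OSK+Glis1 replicate 1 the Hdac2 difference was 2.07 and passed, and without OSK+Glis1 replicate 2 it was -0.62.

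**Figure D3:**
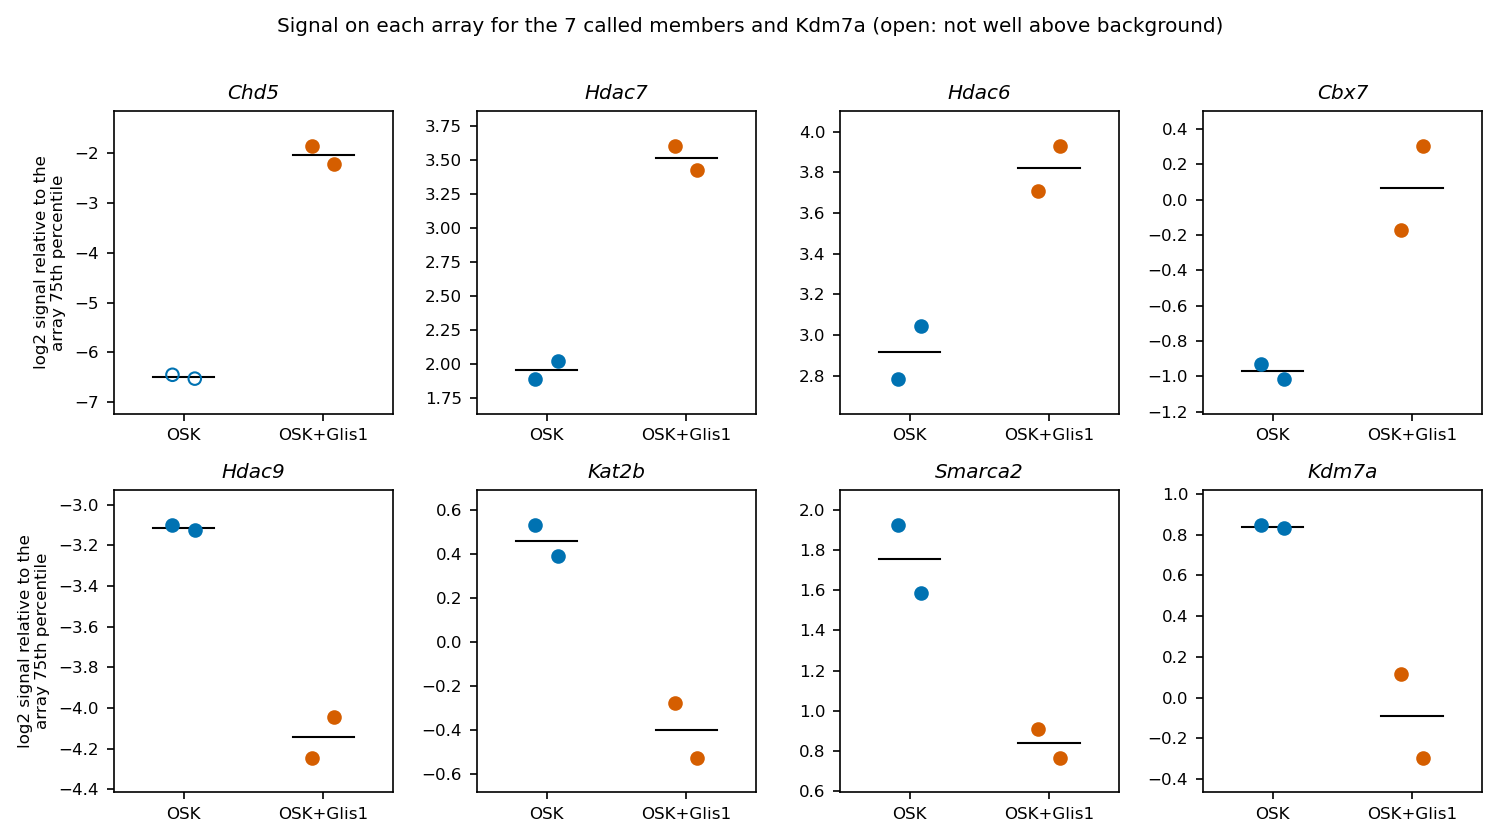
Log2 signal relative to the 75th percentile of each array (vertical axis, a separate scale per gene) on the 2 OSK arrays (blue) and the 2 OSK+Glis1 arrays (orange); points are arrays, lines are group means, and open points mark a signal not well above background. The groups do not overlap for the 7 called members or for Kdm7a, whose adjusted p was 0.0502.

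Acetyltransferases had 0 higher and 1 lower of 8. Kat2b (PCAF), a subunit of the SAGA-like coactivator complexes, was at 0.53 and 0.39 in OSK and at -0.28 and -0.53 in OSK+Glis1. It fell 1.82-fold (-0.86 ± 0.18 SE on the log2 scale, adjusted p = 0.0451 in limma). Its second probe overlapped between groups and differed by -0.48, and the call was lost when the probes were averaged (adjusted p = 0.106). Kat2a (GCN5), the alternative subunit at the same place in the complex, was at -0.62 and 0.26 in OSK and at -0.23 and -0.21 in OSK+Glis1, with an interval of -0.89 to 0.81. Kat7 (HBO1), which acetylates histones at replication origins, was at 1.46 and 1.64 in OSK and at 2.10 and 1.94 in OSK+Glis1, a difference of 0.48 that did not pass (limma adjusted p = 0.161). Kat14 differed by 0.36 (limma adjusted p = 0.292), also without overlap. Kat5 (Tip60) and Kat8 (MOF), known to be needed in embryonic stem cells, differed by 0.34 and 0.32. Kat6a and Kat6b differed by -0.17 and -0.12.

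Bromodomain genes had 0 called of 7. Brd8, a subunit of the Tip60 complex, was at 1.31 and 1.22 in OSK and at 1.86 and 1.75 in OSK+Glis1 (difference 0.54, limma adjusted p = 0.106). Brd7 of the PBAF complex differed by 0.28 (limma adjusted p = 0.33). Brd3, Brd9 and Brd1 differed by 0.03, -0.08 and 0.20, and Brd8dc, named like Brd8 but a separate gene, by -0.44 with an interval of -1.18 to 0.30.

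Polycomb repressive complex 2 deposits the repressive methyl mark of silent developmental genes. None of its 4 tested genes passed. Ezh2, its main catalytic subunit in dividing cells, was at 1.99 and 2.17 in OSK and at 2.03 and 2.27 in OSK+Glis1, with overlapping groups and an interval of -0.41 to 0.56. Eed and Suz12, the structural subunits, had intervals of -0.51 to 0.43 and -0.54 to 0.49. Ezh1, the catalytic subunit more common in resting cells, was at -1.50 and -0.996 in OSK and at -1.87 and -1.98 in OSK+Glis1. Its groups did not overlap, and its difference of -0.68 did not pass (limma adjusted p = 0.136). Beside these values, 12 of 12 proliferation markers had positive differences, with a median of 0.34, and 2 of them (Top2a and Ccne1) rose; their part in the values of Ezh1 and Ezh2 was not tested.

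Chromobox proteins read methylated lysines: Cbx2, Cbx6, Cbx7 and Cbx8, among others, in Polycomb repressive complex 1, and Cbx1, Cbx3 and Cbx5 as the heterochromatin proteins HP1. Of 8 tested 1 rose and 0 fell. Cbx7, the main Polycomb chromobox protein of embryonic stem cells and a repressor of the Cdkn2a locus, was at -0.93 and -1.01 in OSK and at -0.17 and 0.30 in OSK+Glis1. It rose 2.05-fold (1.04 ± 0.22 SE on the log2 scale, adjusted p = 0.0454 in limma). The OSK+Glis1 arrays differed from each other by more than the OSK arrays did.

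Cbx2, Cbx6 and Cbx8 did not pass. Cbx2 had an interval of -0.60 to 0.41, Cbx6 of -0.28 to 0.78 and Cbx8 of -0.67 to 0.33. Each of these intervals excludes a difference of 2-fold. Among the HP1 genes Cbx1 was at 2.61 and 1.86 in OSK and at 2.61 and 3.11 in OSK+Glis1 (difference 0.63, limma adjusted p = 0.294). Its groups touched at 2.61 to this precision. Cbx5 differed by 0.34 (limma adjusted p = 0.324), and its 3 probes differed by 0.34, 0.34 and 0.42. Cbx3 differed by 0.10.

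Lysine demethylases had 0 called of 17, of which 12 had a positive and 5 a negative difference. Kdm7a, a Jumonji enzyme that removes repressive methyl groups, came closest. It was at 0.85 and 0.83 in OSK and at 0.12 and -0.29 in OSK+Glis1, without overlap. Its difference of -0.93 ± 0.21 SE had a limma adjusted p of 0.0502. All 3 Kdm7a probes were lower without overlap, the other 2 by -1.65 and -0.76, and the mean of its probes passed (adjusted p = 0.0334).

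Kdm4d was not well above background in OSK, at -6.86 and -5.99, and was at -5.53 and -5.59 in OSK+Glis1 (limma adjusted p = 0.161). Against the lowest well-above-background signals it was 1.25-fold higher, a value that was not tested and is no strict lower bound. Its difference turned to -0.01 under normexp with flagged backgrounds replaced. Kdm2b, a demethylase that recruits Polycomb to CpG islands and aids reprogramming, was at -0.06 and -0.16 in OSK and at 0.12 and -0.01 in OSK+Glis1. Its difference was 0.17 with an interval of -0.27 to 0.61. Kdm6a (Utx), the Polycomb mark eraser needed for reprogramming, had an interval of -0.32 to 0.62. Kdm6b (Jmjd3), which acts on the same mark and hinders reprogramming, was at 1.10 and 0.40 in OSK and at 0.75 and 0.92 in OSK+Glis1, with an interval of -0.64 to 0.82. Kdm1a (Lsd1), the flavin-dependent demethylase of CoREST, differed by 0.13 with an interval of -0.29 to 0.55. The remaining demethylases ranged from -0.63 for Kdm1b to 0.83 for Kdm8.

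Lysine methyltransferases of the Kmt and Setd names had 0 called of 14. Setd4 was at -1.03 and -1.07 in OSK and at -0.44 and -0.34 in OSK+Glis1 (difference 0.66, limma adjusted p = 0.0661). In the authors' deposited log2 values Setd4 passed (adjusted p = 0.0402), and so did Setd2, the enzyme that marks transcribed gene bodies, at 0.62 (adjusted p = 0.103) as scaled here. Setd7, a monomethylase of histone H3 and other proteins, was at 2.24 and 1.94 in OSK and at 1.37 and 1.39 in OSK+Glis1 (difference -0.71, limma adjusted p = 0.0766). Of its 3 tested probes the others differed by -0.73 and 0.11. Setd5 and Setd1a differed by 0.58 and 0.51 without overlap and did not pass, and Setd3 and Setd6 differed by 0.03 and -0.14. The MLL-family genes Kmt2b, Kmt2c, Kmt2d and Kmt2e lay between -0.18 and 0.12, and Kmt5a, Kmt5b and Kmt5c between -0.03 and 0.07. All 7 of these intervals excluded a difference of 2-fold.

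Arginine methyltransferases had 0 called of 7 tested, and all 7 intervals lay within 2-fold. Prmt1, the main enzyme of asymmetric dimethylation, was at 4.55 and 5.10 in OSK and at 4.74 and 4.94 in OSK+Glis1, with overlapping groups. Prmt5, the main enzyme of symmetric dimethylation, differed by 0.30 with an interval of -0.34 to 0.94. Prmt2 differed by -0.30 (limma adjusted p = 0.365) and Prmt9 by -0.15 (limma adjusted p = 0.603), both without overlap. Prmt3, Prmt6 and Prmt7 differed by 0.03, -0.10 and -0.05. The eighth gene, Prmt8, was not tested: its probe was well above background on 0 OSK arrays and 1 OSK+Glis1 array, with signals of -8.11 and -7.51 against -5.004 and -6.41.

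Where a gene had several probes they mostly agreed in sign. Of 50 members with more than 1 tested probe, 35 had all probes on the same side of 0. This included the 4 called members with several tested probes, Chd5, Hdac7, Smarca2 and Kat2b. For Chd5 the filter favoured the shared sign, because all its probes entered through the OSK+Glis1 arrays alone. The widest disagreement was in Kdm5a, whose 3 probes differed by 0.45, 0.40 and -0.40. Probes of 1 gene share the same 4 arrays, and the share of agreeing genes among all genes with several probes was not counted.

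**Figure D4:**
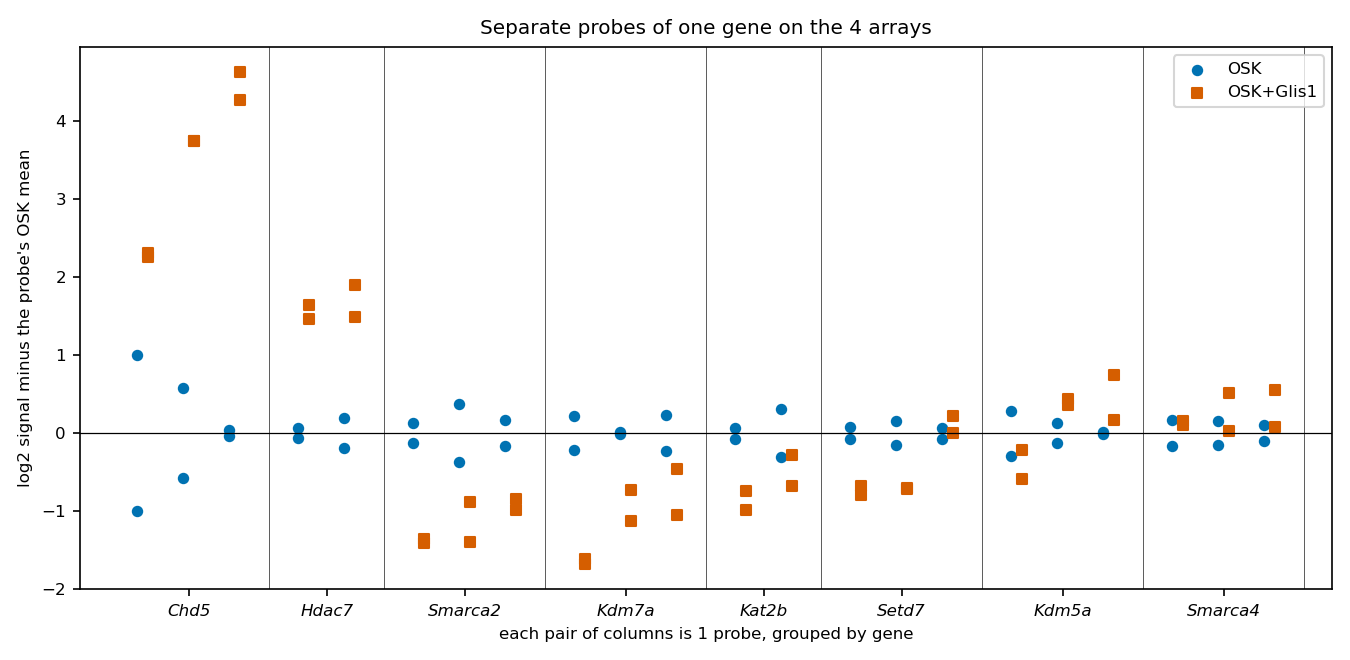
Log2 signal of each probe minus its OSK mean (vertical axis) on the 2 OSK arrays (blue circles) and the 2 OSK+Glis1 arrays (orange squares), for 8 members with several tested probes; each pair of columns is 1 probe. All probes of Chd5 and Hdac7 lie above and all of Smarca2 and Kdm7a lie below the OSK arrays, whereas those of Setd7 and Kdm5a disagree. The Chd5 probes were well above background in OSK+Glis1 only.

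The calls near the threshold were not stable. Without any 1 of the 4 arrays the calls of Hdac6, Cbx7, Hdac9, Kat2b and Smarca2 were lost, and Hdac7 lost its call without OSK replicate 1. In the authors' deposited log2 values Kat2b and Smarca2 did not pass, under quantile normalization Hdac6 did not, and under plain normexp correction 0 members passed. Chd5 passed in all 4 fits that left out 1 array, with a log2 difference between 4.27 and 4.64, but it is also the called member that entered the test through 1 group alone. With probes well above background on all 4 arrays only, which leaves Chd5 out, 3 members were higher and 4 lower. Leaving out OSK replicate 1 left 1 member higher. Leaving out OSK replicate 2 gave 2, as did leaving out OSK+Glis1 replicate 2. Leaving out OSK+Glis1 replicate 1 gave 3, Hdac2 among them. In each of the 4 fits 0 members were lower.

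**Figure D5:**
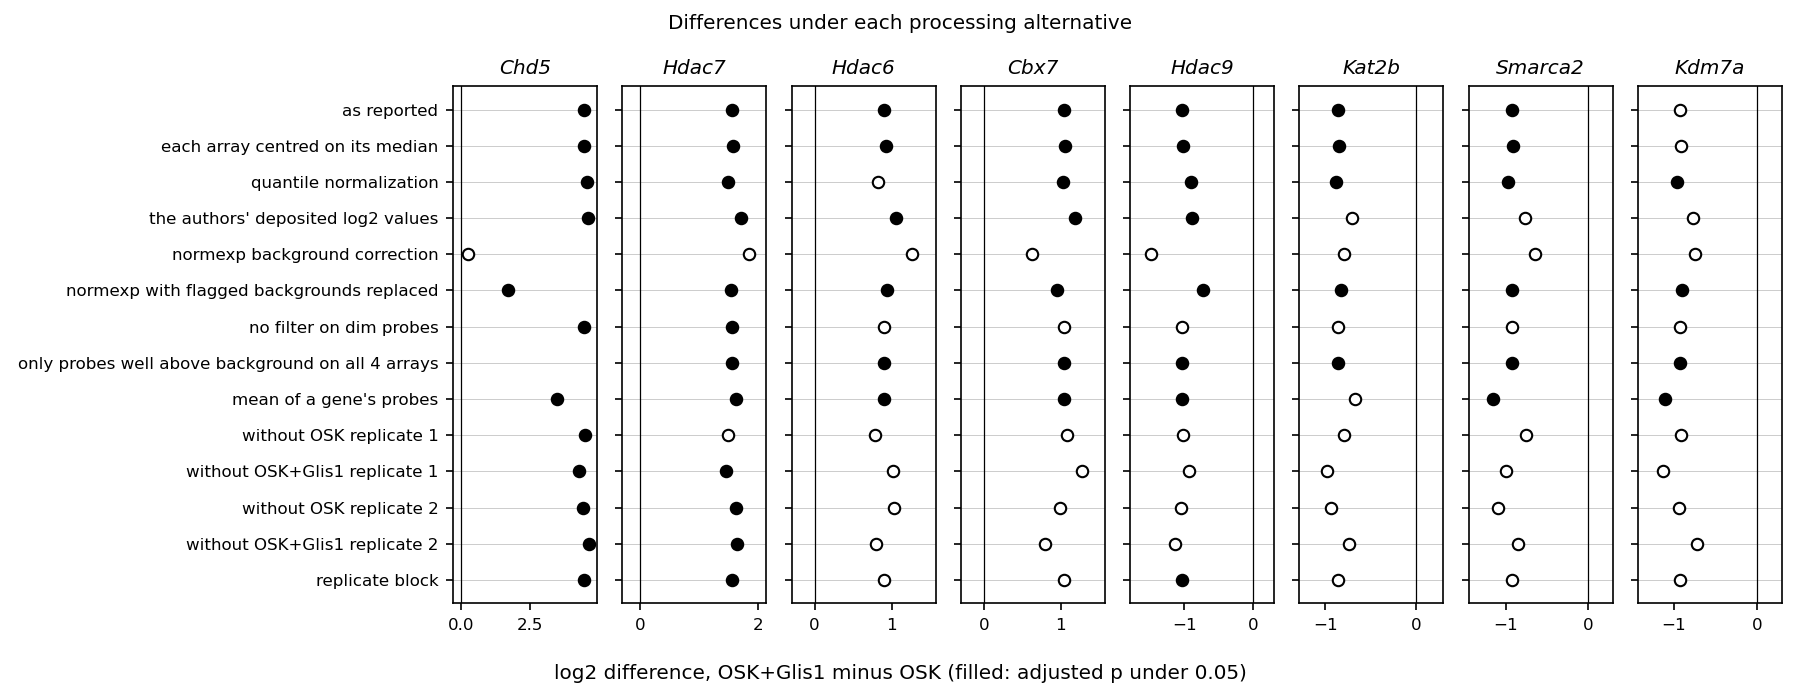
Log2 difference, OSK+Glis1 minus OSK (horizontal axis, a separate scale per gene), of the 7 called members and Kdm7a as reported and under 13 processing alternatives (rows); filled points have a limma adjusted p under 0.05. No difference changes sign, Chd5 is missing where only probes above background on all arrays were used, and plain normexp leaves no filled point.

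Partners of these enzymes that the naming rule does not take were described from a list of 151 chromatin genes, of which 144 were tested. Of these, 12 rose and 3 fell (8.33% and 2.08%, against 6.05% and 8.17% of all genes), with a median difference of 0.19. The list was chosen with earlier results of these data known, so it is no independent evidence.

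Corepressor partners of the deacetylases rose in 3 of 21 cases (14.3%, against 6.05% of all genes) and fell in 0 (against 8.17%). Among the 3 that rose were Rcor2 and, named after its value was seen, Sin3b at 0.75 (limma adjusted p = 0.0494). Rcor2, a CoREST scaffold that partners Kdm1a, rose by 1.29 (limma adjusted p = 0.0383), from 2.91 and 2.29 to 3.81 and 3.97. Its groups did not overlap.

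Hr (hairless), a corepressor with a Jumonji domain, was at -4.92 and -4.43 in OSK and at -2.14 and -2.33 in OSK+Glis1 and rose by 2.44 (limma adjusted p = 0.00542). Bcl11b, a zinc finger factor counted as a SWI/SNF subunit, rose by 2.38 (limma adjusted p = 0.00646), from -3.40 and -3.15 to -1.15 and -0.63. With normexp correction and flagged backgrounds replaced both calls held at smaller differences, 1.28 for Hr and 1.72 for Bcl11b, and under plain normexp neither passed (0.0863 and 0.85). Prdm16 was well above background on 1 OSK array, at -4.97 and -5.87, and was at -3.69 and -3.71 in OSK+Glis1. Its difference was 1.72 (limma adjusted p = 0.0336). Prdm16 entered the test only through the OSK+Glis1 arrays, where it is high, so its selection favoured a difference. The histone variant gene Macroh2a2 rose by 1.04, the acetyltransferase scaffold gene Brpf3 by 1.06 and the Polycomb gene Pcgf2 (Mel18) by 1.00 on the log2 scale, each without overlap. With normexp correction and flagged backgrounds replaced the calls of Prdm16 (0.48, limma adjusted p = 0.0981), Brpf3 (0.57, limma adjusted p = 0.0597) and Pcgf2 (0.53, limma adjusted p = 0.0734) were lost, and under plain normexp the differences of these 3 and of Macroh2a2 turned negative.

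The 3 related genes that fell were Padi4, Baz1a and Pcgf5, the last named after its value was seen. Padi4, a histone citrullinating enzyme, was at -3.39 and -3.88 in OSK and at -5.98 and -5.15 in OSK+Glis1, well above background on 1 of the latter (difference -1.93, limma adjusted p = 0.0285). Padi4 entered the test only through the OSK arrays, where it is high, so its selection favoured a difference. With normexp correction and flagged backgrounds replaced its difference was -0.79 and still passed. Under plain normexp and without a filter on dim probes it did not pass. Baz1a (Acf1), the ISWI partner of Smarca5, was at 3.88 and 3.84 in OSK and at 2.44 and 2.76 in OSK+Glis1 (difference -1.26, limma adjusted p = 0.0173). Pcgf5 differed by -0.97 (limma adjusted p = 0.0241). Without 1 array at a time 2 to 4 related genes were higher and 0 to 2 lower, with Hr called in all 4 fits and Bcl11b in 3. There were 2 higher calls when OSK replicate 2 was left out and likewise for OSK+Glis1 replicate 1. Leaving out OSK+Glis1 replicate 2 gave 3 higher and 2 lower, and leaving out OSK replicate 1 gave 4 higher.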

How the data were processed

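Total RNA labelled with Cy3 was hybridised to one-colour Agilent arrays, 2 per group. The authors deposited 1 scanner table of intensity values per array, written by Agilent Feature Extraction; the processed signal is background-subtracted and spatially detrended, per the file headers. The authors also deposited a series table of log2 values, which set against the scanner tables equal log2 of the mean processed signal minus 1 constant per array (99.8% of probes within 0.01); column medians were 3.1e-06, -0.00016, 0.000216 and 4.8e-05 for OSK 1, OSK 2, OSK+Glis1 1 and OSK+Glis1 2. That match settles scale and direction; how the constants were chosen is not stated.

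Control spots and outlier spots were dropped, spots of a probe averaged, and each array's 75th percentile subtracted (951 and 669 intensity units in OSK, 844 and 949 in OSK+Glis1). Tested probes were well above background on both OSK arrays or both OSK+Glis1 arrays. The probe with the highest mean stood for its gene. Symbols and promoters come from RefSeq (GRCm38.p6); the arrays name build mm9, so probes carry no coordinates. Groups were compared with limma 3.58.1 in R 4.3.3 (lmFit and eBayes, two-sided; 2 residual and 2.82 prior degrees of freedom), and the steps were tested on simulated data. Members and lists were chosen with earlier results of these data known. Named were called members, the 2 largest uncalled differences without overlap per role, fixed core subunits, the 10 largest related calls and members whose probes disagree or were not tested; further members are given to account for the set. The alternatives were other centring, normalization, background, filter and probe rules, the replicate block and each array left out. Some genes are not reported here.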

Additional observations from a re-analysis of the deposited data

How the results depend on the processing

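Of 13 alternatives, quantile normalization, median centring, averaged probes and probes above background on all arrays gave 3 or 4 members higher and 3 or 4 lower, with a member median of 0.054 under quantile normalization and 0.12 with averaged probes. In the authors' deposited log2 values 1 member was lower and the median was 0.24. Plain normexp left 0 members and 0 related genes higher or lower and 0 of all genes called in limma (2 members and 1411 genes at an unadjusted p under 0.05), with a member median of 0.23; with flagged backgrounds replaced 5 members were lower. Without a filter on dim probes, which tests 32172 genes, 2 members were higher and 0 lower, 2 related genes higher and 0 lower, and 1504 genes called (16 members at an unadjusted p under 0.05). Leaving out 1 array gave 1 to 3 members higher, 0 lower, 2 to 4 related genes higher, 0 to 2 lower, 1219 to 1879 genes called and a median of 0.0173 to 0.163; the lone array is assumed to vary like the other group. Between 9 and 20 members had an unadjusted p under 0.05 in these fits.

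The labels number replicates 1 and 2 in both groups, and deviations of same-numbered arrays correlated at 0.00938. With 2 arrays per group this is only 1 correlation, so it cannot settle whether same-numbered arrays belong together. With the replicate block 2 members were higher and 1 lower: Hdac6, Cbx7, Kat2b and Smarca2 lost their calls, and 2654 genes were called in all.

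Signs turned as follows, and no value with a turned sign passed the test. In the deposited values Eed was at 0.12, Prmt9 at 0.00036, Smarcb1 at 0.11 and Suz12 at 0.13, and Smarcc1 was at -0.0353 under quantile normalization. Under plain normexp Chd6 was at -0.36, Eed at 0.14, Kdm4d at -1.23, Kdm6a at -0.57, Prmt2 at 0.0915, Prmt9 at 0.17, Smarcb1 at 0.38, Suz12 at 0.29, Prdm16 at -0.81, Brpf3 at -0.41, Macroh2a2 at -0.24 and Pcgf2 at -0.44; Kdm4d was at -0.0105 with flagged backgrounds replaced. Without 1 array the ranges were -0.042 to 0.20 for Ezh2, -0.20 to 0.16 for Suz12, -0.13 to 0.28 for Smarcc2, -0.17 to 0.0936 for Eed, -0.26 to 0.44 for Kdm6b, -0.23 to 0.15 for Smarcb1, -0.62 to 2.07 for Hdac2 and -0.10 to 0.17 for Smarcc1. The cause of these changes was not tested.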

Other observations

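Among the related chromatin genes the acetylation list (coactivators, sirtuins, Brpf and Ing subunits) had 18 of 19 differences above 0. Their median was 0.36 and their range -0.06 to 1.18, and 1 of the 19 was called higher (5.26%). Of all genes 6.05% were called higher and 8.17% lower. Histone chaperones and heterochromatin proteins had 17 of 21 above 0 (median 0.21), with 2 called higher (9.52%). Polycomb partners had 14 of 23 above 0 (median 0.10), with 2 called higher (8.70%) and 1 lower (4.35%). These lists were chosen with earlier results of these data known. For all genes tested the median was 0.05, or 0.21 in the authors' deposited log2 values, and no list was tested as a set.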
